A study of Homo sapiens with 4 samples.

Results

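A set of 10 genes that mark neural stem cells and glia was followed through RNA-seq of U251 cells after knockdown of PRMT3, a type I protein arginine methyltransferase. The set was SOX2, SOX9, OLIG2, POU3F2, MSI1, NES, GFAP, FABP7, S100B and NCAM1, taken by gene symbol from a table of 15575 genes. Of the 10, 9 had a row, and all 9 passed the filter on low counts. OLIG2 had no row by symbol or by identifier and was not analysed here. U251 is an established human glioblastoma (GBM) line that grows as a serum-fed monolayer. The 2 Ctrl libraries came from U251 cells with a control shRNA vector, with pGreen in their names, and the 2 PRMT3-KD libraries came from U251 cells with PRMT3 shRNA, both delivered by lentivirus and harvested at 72 h. Total RNA was used in both groups, all 4 libraries came from this 1 line, and the sources used here do not name the hairpin behind the PRMT3-KD libraries. The labels do not say whether replicates were separate cultures, so p-values measure only the spread between these libraries, which may be technical.

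In the developing brain, SOX2, SOX9 and POU3F2 are transcription factors of neural stem and progenitor cells, and SOX9 also directs the switch of these cells to glial fates. Nestin and FABP7 mark radial glia, the stem cells of the developing cortex, whereas GFAP and S100B mark astrocytes. GBM cells often express genes of both kinds at once, and SOX2, OLIG2 and POU3F2 belong to the small group of factors known to sustain stem-like GBM cells.

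The promoters of FABP7 and POU3F2 are printed here because FABP7 had the largest difference and POU3F2 the smallest p-value among the 4 members (SOX2, POU3F2, NES and FABP7) with an entry in the RefSeq promoter table. Each is the 250 bases upstream of the gene start, 5′ to 3′ on the strand of the gene. The sequences are from RefSeq (GRCh38.p14) and each was found base for base in GRCh37, FABP7 at chr6:123100611-123100860 and POU3F2 at chr6:99282200-99282449, both on the plus strand. Capitals mark the CCAAT box on either strand, which reads ATTGG when it lies on the other strand.
FABP7: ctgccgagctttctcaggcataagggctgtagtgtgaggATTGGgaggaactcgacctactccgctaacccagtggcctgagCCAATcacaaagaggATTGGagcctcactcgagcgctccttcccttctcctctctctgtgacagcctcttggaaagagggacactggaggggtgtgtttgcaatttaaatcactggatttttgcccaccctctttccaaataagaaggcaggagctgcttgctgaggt
POU3F2: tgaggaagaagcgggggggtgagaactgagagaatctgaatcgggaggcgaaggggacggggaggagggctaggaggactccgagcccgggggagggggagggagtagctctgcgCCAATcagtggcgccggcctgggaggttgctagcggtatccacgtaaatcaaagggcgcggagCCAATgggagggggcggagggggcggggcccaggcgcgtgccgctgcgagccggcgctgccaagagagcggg
FABP7 carried 3 copies of CCAAT, POU3F2 carried 2, SOX2 carried 1 and NES carried 0. CCAAT was found in 33.0% of 27305 promoters of this length. The SOX core ACAAT, present in 25.2% of the promoters, occurred once in NES and in none of the other three. TATAAA was found in 11.1% and the POU octamer ATGCAAAT in 1.66% of all promoters, and neither was found in the promoters of SOX2, POU3F2, NES or FABP7. The nuclear factor I palindrome (the NFI consensus with its 5-base spacer), which 0.033% of promoters held, was likewise not found in these 4. Both strands were searched for each motif, and a match describes letters only.

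PRMT3 itself was detected with 535 counts per Ctrl library against 77 and 45 after knockdown (log2 fold change -3.08, SE 0.314, adjusted p = 0.0177). Library totals lay between 24804250 and 29756313 counts. The 2 Ctrl libraries differed little more than counting error would give, with a chi-square of 1.41 per gene where pure counting error gives about 1, but the 2 PRMT3-KD libraries differed far more, with a chi-square of 66.7 per gene. Estimated within each group, the coefficient of biological variation was 0.0107 for Ctrl and 0.204 for PRMT3-KD cells. All fold changes and adjusted p-values below are from edgeR's quasi-likelihood test across 13172 genes with Benjamini-Hochberg adjustment, and genes are called past the threshold when they differ by over 1.5-fold with adjusted p under 0.05. Permutation of 2 against 2 libraries (exact, two-sided) gives no p under 0.333, so none was used for single genes. CPM are counts scaled to the library total after TMM normalization.

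SOX9 was the only member past the threshold, and it was lower in PRMT3-KD cells. POU3F2 and NCAM1 were also lower at an adjusted p under 0.05, but by less than 1.5-fold. GFAP and FABP7 had the largest differences by size, 4.07-fold and 1.77-fold lower, and neither passed the test. SOX2, NES, MSI1 and S100B did not pass the test either. Thus 1 of 9 members was past the threshold and lower, against a background of 5.97% of all genes tested, and 0 of 9 were past it and higher, against 4.97%. A single call among 9 genes is too few to set the group apart from that background. At an adjusted p under 0.05 with any fold, 3 of 9 were lower, against 8.91%. In 6 of 9 members both PRMT3-KD values lay under both Ctrl values, against 33.8% of all genes, and in the other 3 the groups overlapped, against 32.9%. The median log2 fold change of the 9 was -0.43, with 7 of 9 under 0. That of all genes tested was 0.0055, with 6523 of 13172 under 0. In bulk RNA, fewer cells that express a gene and less of its RNA per cell cannot be told apart.

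The levels spanned from NES, the highest, to MSI1, the lowest in Ctrl. On the RPKM scale, which divides CPM by the merged exon length of the gene and so allows levels of different genes to be compared, the Ctrl order was NES (141 ± 0.900, SD, n = 2), SOX2 (68.0 ± 0.955), SOX9 (62.1 ± 0.130), POU3F2 (41.8 ± 0.733), FABP7 (13.7 ± 0.331), NCAM1 (5.85 ± 0.0889), GFAP (1.22 ± 0.0724), S100B (1.15 ± 0.0485) and MSI1 (0.448 ± 0.0190). GFAP and S100B overlapped between libraries, whereas every other pair of neighbours in this order was separate in both Ctrl libraries. In PRMT3-KD cells, the first 6 kept their places, from 115 ± 46.6 RPKM (SD, n = 2) for NES to 4.09 ± 0.296 for NCAM1, and GFAP stood last at 0.296 ± 0.260 RPKM, behind S100B (1.31 ± 0.347) and MSI1 (0.631 ± 0.403). With the length of the longest transcript in place of merged exons, the order of the 9 genes was the same in both groups, although GFAP then stood at 2.49 RPKM and NCAM1 at 12.8 RPKM in Ctrl. In Ctrl cells the astrocyte markers GFAP and S100B were thus far below the progenitor genes NES and SOX2.

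**Figure D1:**
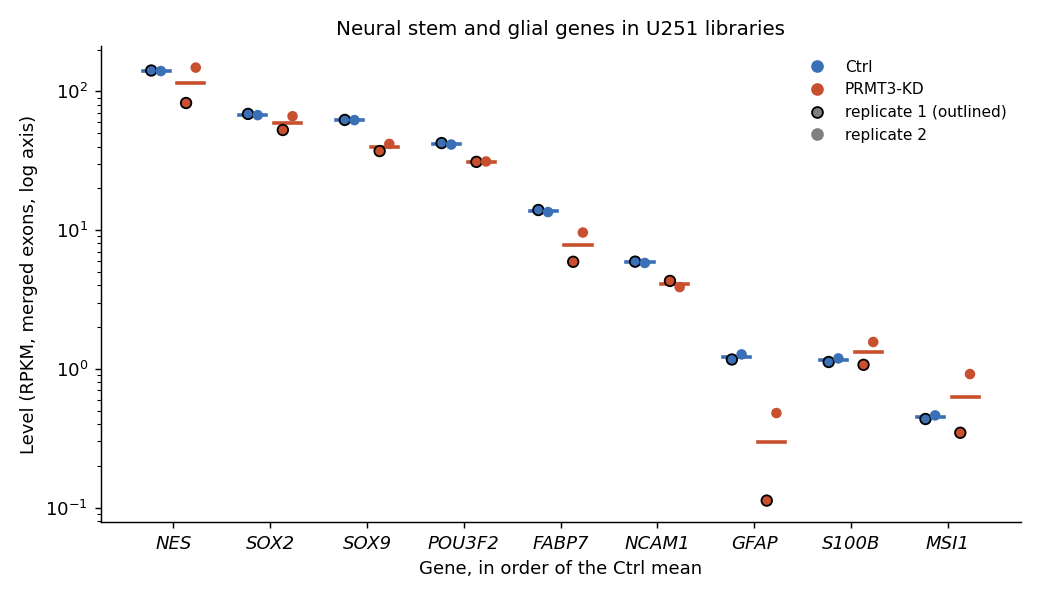
Level of 9 neural stem and glial genes in each U251 library, in RPKM on a log axis, with genes in order of the Ctrl mean. Points are single libraries (outlined, replicate 1), blue for Ctrl and orange for PRMT3-KD, and the horizontal bar is the mean of 2 libraries. The blue points of a gene nearly coincide, while the orange points of NES, FABP7, GFAP and MSI1 lie apart. The GFAP mean stands at 1.22 RPKM in Ctrl, just above S100B, and at 0.296 RPKM in PRMT3-KD, below MSI1.

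Among the transcription factors, SOX9 (ENSG00000125398, chr17:70117161-70122557, GRCh37, plus strand), which drives glial specification, had 6772 and 6703 counts in Ctrl libraries against 3704 and 4666 after knockdown. As CPM, it stood at 244 in each Ctrl library and at 146 and 164 in the PRMT3-KD libraries. Both PRMT3-KD libraries were under both Ctrl libraries, at 59.7% and 67.3% of the Ctrl mean. The SOX9 mean fell 1.57-fold, from 244 ± 0.510 CPM to 155 ± 13.05 CPM (SD, n = 2 each), with a log2 fold change of -0.65 (SE 0.0875, adjusted p = 0.0215, edgeR). This decrease was only just past the 1.5-fold limit. Without PRMT3-KD replicate 1 the log2 fold change was -0.57, under 1.5-fold. Without Ctrl replicate 1 or 2 it was -0.65 or -0.66. Fits with a single Ctrl library take their spread from the PRMT3-KD pair alone, so they cannot single out SOX9. Of 9458 genes averaging 10 CPM or more, 3 were taken as nearest to SOX9 in their profile over the 4 libraries. These were NUDT3 at a distance of 0.0173 on the log2 scale, URM1 at 0.0187 and ALDH18A1 at 0.0212.

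POU3F2 (ENSG00000184486, chr6:99282450-99287334, plus strand), the single-exon gene of the neural POU factor BRN2, was the most even of all members between the PRMT3-KD libraries. It had 207 and 202 CPM in Ctrl libraries and 151 and 152 CPM in PRMT3-KD libraries, so that both PRMT3-KD values were about equal and under both Ctrl values. Its mean was 204 ± 3.58 CPM (SD, n = 2) in Ctrl and 152 ± 0.702 CPM (n = 2) after knockdown. POU3F2 decreased by 0.43 on the log2 scale (log2 fold change -0.43, SE 0.0669, adjusted p = 0.0271, edgeR), which is past the limit on p and not past the limit on size. Without Ctrl replicate 1 or 2 its log2 fold change was -0.41 or -0.45. SOX2 (ENSG00000181449, chr3:181429713-181432224, plus strand), the pluripotency and neural stem cell factor encoded by a single exon, had 173 and 169 CPM in Ctrl and 132 and 166 CPM in PRMT3-KD libraries. Replicate 1 of PRMT3-KD was at 77.4% of the Ctrl mean and replicate 2 at 97.3%, close to the Ctrl libraries, and the groups did not overlap. The log2 fold change of SOX2 was -0.20 (SE 0.129, adjusted p = 0.333, edgeR) and did not pass the test.

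MSI1 (ENSG00000135097, chr12:120779133-120806967, minus strand) encodes Musashi-1, an RNA-binding protein that holds back translation of NUMB in neural progenitors. It was scarce, with 37 and 39 counts in Ctrl libraries against 27 and 80 after knockdown, or 1.34 and 1.42 against 1.06 and 2.82 CPM. One PRMT3-KD library lay below and the other above both Ctrl libraries, so the groups overlapped. The log2 fold change of 0.50 (SE 0.515, adjusted p = 0.526, edgeR) had an error larger than itself. Against the Ctrl mean, replicate 1 stood at -0.37 and replicate 2 at 1.03 on the log2 scale. Without PRMT3-KD replicate 1 the log2 fold change of MSI1 was 1.03, while without PRMT3-KD replicate 2 it was -0.38.

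NES and GFAP encode intermediate filament proteins of the cytoskeleton. NES (ENSG00000132688, chr1:156638555-156647199, minus strand), which encodes nestin, the filament protein of neural progenitors, had 786 and 779 CPM in Ctrl and 459 and 826 CPM in PRMT3-KD libraries. Replicate 1 of PRMT3-KD was far under the Ctrl libraries, at 58.6% of their mean, and replicate 2 was above both of them at 105%. The log2 fold change of NES was -0.29 (SE 0.290, adjusted p = 0.521, edgeR). Without PRMT3-KD replicate 1 it was 0.08, and without PRMT3-KD replicate 2 it was -0.78, so the direction of NES rested on 1 library.

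GFAP (ENSG00000131095, chr17:42980527-42994305, minus strand), the filament protein of astrocytes, had 363 and 392 counts in Ctrl libraries against 32 and 153 after knockdown. This was 13.1 and 14.3 CPM against 1.26 and 5.39 CPM. Both PRMT3-KD libraries were well below both Ctrl libraries, at 9.21% and 39.4% of the Ctrl mean, but they also stood 2.10 apart from each other on the log2 scale. With means of 13.7 ± 0.813 CPM (SD, n = 2) in Ctrl and 3.32 ± 2.92 CPM (n = 2) after knockdown, GFAP had a log2 fold change of -2.03 (SE 0.637, adjusted p = 0.0958, edgeR). GFAP did not pass the edgeR test, and passed with DESeq2 (adjusted p = 0.0019) and with limma-voom weighted by group (adjusted p = 0.0188). Its log2 fold change was -1.34 without PRMT3-KD replicate 1 and -3.44 without replicate 2. Without Ctrl replicate 1 or 2 it was -2.09 or -1.97. Exons of GFAP share stretches of up to 2232 bases on the opposite strand with CCDC103 and up to 1958 bases with FAM187A. Reads from these genes cannot be told apart without strand, which is not stated for the counting. CCDC103 had 39 and 105 counts in Ctrl and 18 and 46 in PRMT3-KD libraries, and FAM187A had 123 and 29 against 48 and 32, with log2 fold changes of -1.15 (adjusted p = 0.272) and -0.87 (adjusted p = 0.452, edgeR). Their part in the GFAP counts was not tested.

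**Figure D2:**
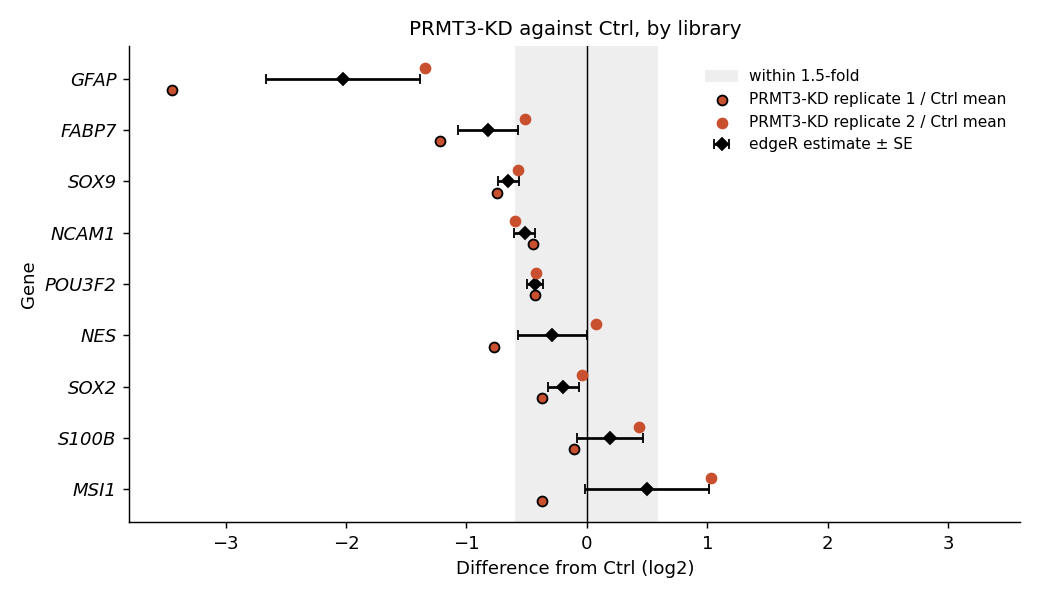
Difference of PRMT3-KD from Ctrl for the 9 genes, as log2, in order of the edgeR estimate. Diamonds with bars are the edgeR log2 fold change ± SE, circles are each PRMT3-KD library against the Ctrl mean (outlined, replicate 1), and grey marks changes within 1.5-fold. GFAP stands farthest to the left at -2.03 with its libraries at -3.44 and -1.34, the circles of POU3F2, NCAM1 and SOX9 are close together, and those of NES, S100B and MSI1 lie on both sides of 0.

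FABP7 (ENSG00000164434, chr6:123100861-123105219, plus strand), the brain fatty acid binding protein of radial glia whose promoter is printed above, had 961 and 922 counts in Ctrl libraries against 373 and 678 after knockdown. In CPM, the values were 34.7 and 33.5 against 14.7 and 23.9. Both PRMT3-KD libraries were under both Ctrl libraries, at 43.1% and 70.0% of the Ctrl mean, with replicate 1 the lower. With means of 34.1 ± 0.823 CPM (SD, n = 2) in Ctrl and 19.3 ± 6.49 CPM (n = 2) after knockdown, FABP7 had a log2 fold change of -0.82 (SE 0.247, adjusted p = 0.0882, edgeR). As for GFAP, FABP7 passed with DESeq2 (adjusted p = 0.0140) and with limma-voom weighted by group (adjusted p = 0.0214), but not with edgeR. Without PRMT3-KD replicate 2 its log2 fold change was -1.22, and without PRMT3-KD replicate 1 it was -0.51, under 1.5-fold. The annotation holds 2 pseudogenes of FABP7, with which its reads could be shared.

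S100B (ENSG00000160307, chr21:48018517-48025121, minus strand), a calcium-binding protein of astrocytes that is also secreted, was present at a low level of 56 and 59 counts in Ctrl libraries against 49 and 80 after knockdown. This was 2.02 and 2.14 CPM against 1.93 and 2.82 CPM, with the Ctrl values between the PRMT3-KD values. The log2 fold change of S100B was 0.19 (SE 0.277, adjusted p = 0.656, edgeR), and it was -0.11 without PRMT3-KD replicate 2. The 2 astrocyte markers GFAP and S100B therefore had different signs in this comparison, but the difference between them was not tested.

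NCAM1 (ENSG00000149294, chr11:112831997-113149158, plus strand) encodes a cell adhesion molecule of neural cells that carries polysialic acid in progenitors and signals through FGFR1. It had 2081 and 2022 counts in Ctrl libraries against 1386 and 1399 after knockdown, or 75.1 and 73.5 against 54.6 and 49.2 CPM. Both PRMT3-KD libraries were under both Ctrl libraries, and NCAM1 was the only member in which PRMT3-KD replicate 2 was the lower of the pair. The NCAM1 mean was 74.3 ± 1.13 CPM (SD, n = 2) in Ctrl and 51.9 ± 3.75 CPM (n = 2) after knockdown, and its log2 fold change was -0.52 (SE 0.0865, adjusted p = 0.0306, edgeR), less than 1.5-fold. Without PRMT3-KD replicate 1 it was at -0.59, just over 1.5-fold, and without Ctrl replicate 1 or 2 it was at -0.50 or -0.53. Exons of NCAM1 share up to 427 bases on the opposite strand with NCAM1-AS1 and fewer with 2 other long non-coding RNAs, none of which had a row in the table.

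By their median, the 9 members were more uneven between the PRMT3-KD libraries than genes in general. That median was the value of S100B itself, which had only 49 and 80 counts there, so it includes counting error. The median absolute difference between PRMT3-KD replicates was 0.546 on the log2 scale for the members and 0.238 for 13159 genes tested, whereas between Ctrl replicates it was 0.0358 for the members and 0.0532 for these genes. PRMT3-KD replicate 2 was the higher of the pair in 8 of 9 members and in 46.4% of the genes. GFAP and MSI1 were over 2-fold apart between the PRMT3-KD libraries, 2 of 9 members against 6.54% of the genes. PRMT3 itself, by contrast, was lower in replicate 2, with 45 counts against 77. These are descriptions of 2 libraries and carry no test.

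**Figure D3:**
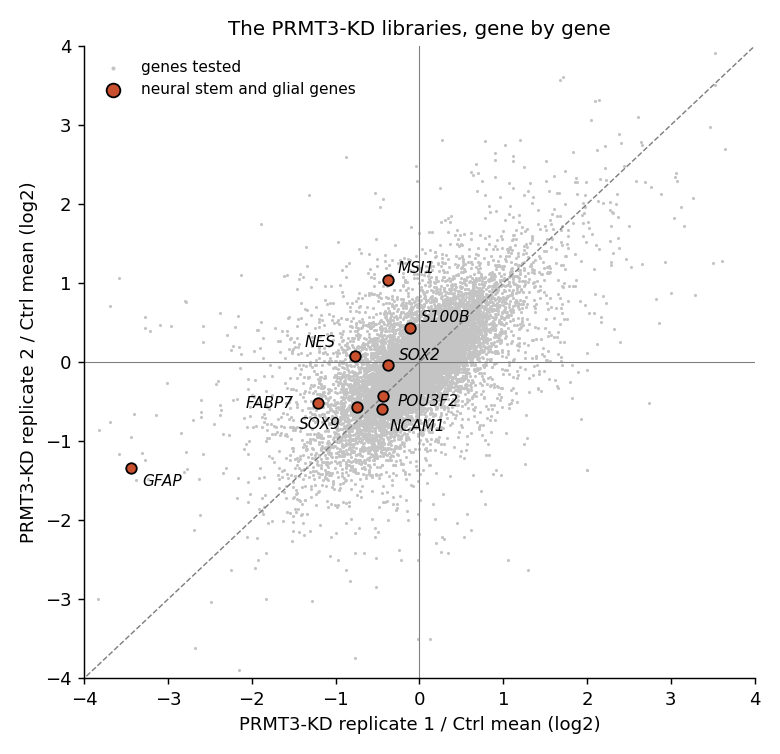
Each PRMT3-KD library against the Ctrl mean, as log2, replicate 1 on the horizontal axis and replicate 2 on the vertical axis. Grey points are genes tested, orange points are the 9 neural stem and glial genes, and the dashed line marks equal values. Of the members, 8 lie above the dashed line and NCAM1 just below it, POU3F2 is nearly on it, and GFAP and MSI1 lie farthest from it. Axes end at 4 on either side of 0, which leaves out 20 of the 13172 genes.

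The surrounding gene programmes were read from 8 lists of neural stem, astrocyte, oligodendrocyte lineage, neuronal, related and partner genes and of immune and endothelial markers, 125 genes in all with each gene counted once. Of these, 98 had a row and 78 were tested. In PRMT3-KD cells 6 of 78 were past the threshold and lower, against 5.97% of all genes, and 0 of 78 were past it and higher, against 4.97%. The 6 were HES1, SOX21, UGT8, TUBB3, FGFR1 and KDR. The median log2 fold change of the 78 was -0.03, with 40 of 78 under 0. This was near the median of 0.0055 for all genes tested, of which 6523 of 13172 were under 0.

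Among neural stem and progenitor genes, 2 of 16 tested were lower and 0 were higher, with a median log2 fold change of -0.05. HES1, the Notch target that keeps progenitors undifferentiated, had 31.5 and 32.4 CPM in Ctrl and 17.4 and 16.9 CPM in PRMT3-KD libraries (log2 fold change -0.90, SE 0.0888, adjusted p = 0.0172, edgeR). Both PRMT3-KD libraries were close together and well under Ctrl. SOX21, a SOX factor that opposes SOX2 and its close relatives in progenitors, had 40.8 and 44.6 CPM against 15.5 and 24.1 CPM (log2 fold change -1.11, SE 0.231, adjusted p = 0.0439, edgeR). It too was under Ctrl in both PRMT3-KD libraries, with replicate 1 the lower. The most abundant genes of this list did not pass the test. VIM, the filament protein of mesenchymal and glial cells, had a log2 fold change of -0.18 (adjusted p = 0.248, edgeR) and ID1, an inhibitor of differentiation factors, one of 0.07 (adjusted p = 0.629, edgeR). SOX1, FUT4 and HES5 had no row.

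Of the astrocyte genes, 0 of 15 tested were past the threshold in either direction, and the median log2 fold change was 0.09. The most abundant was the hyaluronan receptor CD44, with 1955 and 1958 CPM in Ctrl and 2271 and 1645 CPM in PRMT3-KD libraries, a log2 fold change of 0.0011 (adjusted p = 0.997, edgeR) from libraries on both sides of Ctrl. NFIX, a nuclear factor I of glial differentiation, stood at 0.32 (adjusted p = 0.101, edgeR). The 1 astrocyte gene with an adjusted p under 0.05 was CLU, a secreted chaperone, named after its values were seen. CLU was higher, at 77.2 and 76.4 CPM in Ctrl and 110 and 108 CPM in PRMT3-KD libraries (log2 fold change 0.50, adjusted p = 0.0221, edgeR), by less than 1.5-fold. GJB6 had no row, and AQP4 and SLC1A2 had too few counts to be tested.

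In the oligodendrocyte lineage list, 1 of 7 tested was lower and 0 were higher (median log2 fold change -0.08). UGT8, which makes the myelin lipid galactosylceramide, had 22.6 and 22.4 CPM in Ctrl and 10.7 and 14.8 CPM in PRMT3-KD libraries (log2 fold change -0.82, SE 0.181, adjusted p = 0.0492, edgeR). PDGFRA, the receptor of oligodendrocyte progenitors, had 33.4 and 34.2 CPM in Ctrl and 8.62 and 37.2 CPM in PRMT3-KD libraries, and its groups overlapped (log2 fold change -0.56, adjusted p = 0.587, edgeR). The enzyme CNP of myelinating cells had a log2 fold change of -0.36, under 1.5-fold, with an adjusted p of 0.0488 by edgeR that was 0.0501 with DESeq2, 0.0521 with its size factors in edgeR and 0.0556 with the filter of 1 count in any library. Without Ctrl replicate 1 or 2 the log2 fold change of CNP was -0.35 or -0.38. Like OLIG2, the lineage factors OLIG1, SOX10, SOX8, NKX2-2 and NKX6-2 had no row, nor did BCAS1.

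Of the neuronal genes, 1 of 11 tested was lower and 0 were higher (median log2 fold change -0.12). TUBB3, the neuronal beta-tubulin that many tumour cells also make, fell from 319 and 329 CPM in Ctrl to 192 and 227 CPM in PRMT3-KD libraries (log2 fold change -0.62, SE 0.105, adjusted p = 0.0308, edgeR). NEFL, the neurofilament light chain, was the most abundant gene of the list, at 1521 and 1513 CPM in Ctrl against 590 and 1082 CPM, with both PRMT3-KD libraries under Ctrl (log2 fold change -0.86, adjusted p = 0.117, edgeR). NEFL did not pass with edgeR and was past the threshold with DESeq2 (adjusted p = 0.0105) and limma-voom (adjusted p = 0.00997). Its log2 fold change was -0.48 without PRMT3-KD replicate 1 and -1.37 without replicate 2. MAP1B, a microtubule-associated protein, had PRMT3-KD values on both sides of Ctrl (log2 fold change 0.04, adjusted p = 0.937, edgeR). DCX, RBFOX3, NEFM, NEFH, ELAVL3, ELAVL4 and NEUROD1 had no row.

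Of 21 tested relatives of the members, which were other SOX, S100, intermediate filament, Musashi, POU and L1 family genes, 0 were past the threshold (median log2 fold change -0.05). MSI2, the relative of MSI1, had 155 and 146 CPM in Ctrl and 103 and 140 CPM in PRMT3-KD libraries, both under Ctrl (log2 fold change -0.31, adjusted p = 0.250, edgeR). S100A6, a calcium-binding relative of S100B, had a log2 fold change of 0.0047 (adjusted p = 0.973, edgeR). FABP5, a close relative of FABP7 with 15 annotated pseudogenes, is listed at 0 counts in 3 libraries and 1 count in the fourth, so its low count is uncertain. MSI2 and FABP5 were named after their values were seen. INA, POU3F1 and NCAM2 had no row.

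Of 5 partners of the members, FGFR1, the growth factor receptor with which NCAM1 interacts, was past the threshold. FGFR1 had 72.7 and 74.2 CPM in Ctrl and 47.4 and 49.5 CPM in PRMT3-KD libraries, with both PRMT3-KD values close together (log2 fold change -0.60, SE 0.0744, adjusted p = 0.0202, edgeR). NUMB, the target of MSI1, stood at 0.26 (adjusted p = 0.214, edgeR), and ST8SIA2, one of the enzymes that add polysialic acid to NCAM1, at -0.57 (adjusted p = 0.435, edgeR). ST8SIA2 had 7.43 and 8.11 CPM in Ctrl against 2.87 and 7.57 CPM after knockdown. Its log2 fold change was -0.036 without PRMT3-KD replicate 1 and -1.44 without replicate 2. The median of the 5 partners was the value of ST8SIA2 itself, so it rested on the same library. Of the 6 list genes past the threshold, TUBB3 and FGFR1 were under 1.5-fold without PRMT3-KD replicate 1, at -0.51 and -0.57. Fits with a single Ctrl library take their spread from the PRMT3-KD pair alone, so they cannot single out any of the 6. KDR was not past the threshold with library totals in place of TMM, and UGT8 was not with DESeq2 size factors in edgeR or with the filter of 1 count in any library, where its adjusted p was 0.0517 and 0.0501. With DESeq2, 9 list genes were past the threshold, 1 of them (CSPG4, named after its values were seen) higher.

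The label of U251 as GBM cells was set beside its markers. VIM (5399 and 5389 CPM in Ctrl), CD44 and NES were abundant in every library, and GFAP and S100B were detected at low levels. Markers of immune and endothelial cells were mostly few or low. Some neuronal genes were abundant in Ctrl, among them NEFL (1521 and 1513 CPM), MAP1B (916 and 918 CPM) and TUBB3 (319 and 329 CPM). Other neuronal genes, such as DCX and RBFOX3, had no row. AIF1, CX3CR1, TYROBP and C1QA of microglia and PECAM1 and TEK of endothelium had no row. The 4 immune and microglial markers with a row summed to between 6.07 and 6.28 CPM in Ctrl and between 3.42 and 4.05 CPM in PRMT3-KD libraries. Of 3 tested, 0 were past the threshold. CSF1R, which made up most of that sum, had 5.27 and 5.42 CPM against 2.48 and 3.45 CPM (log2 fold change -0.85, adjusted p = 0.0713, edgeR), and CD14 had a log2 fold change of -0.89 (adjusted p = 0.180, edgeR). The 3 endothelial markers with a row summed to between 27.5 and 29.6 CPM in Ctrl and between 19.6 and 37.9 CPM in PRMT3-KD libraries. KDR, the VEGF receptor, was past the threshold and lower, at 20.1 and 22.2 CPM against 13.4 and 9.997 CPM (log2 fold change -0.86, SE 0.177, adjusted p = 0.0428, edgeR). CDH5 had 5.05 and 5.31 CPM in Ctrl and 5.08 and 25.4 CPM in PRMT3-KD libraries (log2 fold change 1.56, adjusted p = 0.221, edgeR), and VWF did not pass the test at -0.27 (adjusted p = 0.668, edgeR). The summed immune markers were lower in both PRMT3-KD libraries, as were SOX9, GFAP and FABP7, and their part in these results was not tested.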

How the data were processed

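The authors deposited whole-number gene counts for 4 U251 libraries (2 Ctrl, 2 PRMT3-KD). Per the study's methods, Illumina HiSeq reads were aligned to hg19 with TopHat and unnormalized counts were made with Cufflinks. Versions, annotation and strand setting were not given in the sources used here. After removal of 1 duplicate entry, filterByExpr removed low genes (minimum count 10, total 15), and the rest were scaled by TMM (factors 0.955 to 1.02) and tested with edgeR 4.0.16 (glmQLFit, glmQLFTest) in R 4.3.3, with Benjamini-Hochberg adjustment over 13172 genes. Depth limits the precision of genes with few counts. Gene models were from GENCODE 44 lifted to GRCh37, which held 99.9% of the identifiers. Alternatives used DESeq2 1.42.0, limma 3.58.1, other scalings, filters, fold limits, the replicate number as a block, and each library left out. The members and lists were chosen with earlier results of these data known. All members are named, and from each list the genes past the threshold (up to 6, by adjusted p) and the 2 most abundant of the others. A listed gene is not reported here.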

Additional observations from a re-analysis of the deposited data

How the results depend on the processing

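Over 8 other tests, scalings and filters, 72 of 72 member values kept their direction. These settings used the same 4 libraries, so the direction was nearly fixed in advance. With a library left out, 33 of 36 member values kept their direction and 3 reversed (NES, MSI1 and S100B). The 1441 genes past the threshold became between 1275 (library totals only) and 1834 (DESeq2), 2278 with no fold limit and 512 with a 2-fold limit. With library totals, 40.9% of the calls were higher in place of 45.5%. The 1 member past the threshold became 3 with DESeq2 and 3 with limma-voom (FABP7, GFAP and SOX9), 3 with no fold limit and 0 with a 2-fold limit, and the 6 list genes became 9 with DESeq2 (1 of them higher), 8 with limma-voom, 9 with no fold limit and 1 with a 2-fold limit.

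With the replicate block, 2 members (GFAP, adjusted p = 0.0354, and SOX9) and 1464 genes were past the threshold, by edgeR, as were 8 list genes, NEFL among them (adjusted p = 0.0499), while POU3F2 had an adjusted p of 0.0628 and CNP of 0.0965. The labels do not say whether libraries of the same number were made together. Replicate differences in Ctrl and PRMT3-KD had a correlation of 0.0379 across genes. This value cannot decide it, because the Ctrl pair differed little more than counting error would give. A fit with a single PRMT3-KD library takes its spread from the nearly identical Ctrl pair alone, so it cannot single out a gene. With 1 library left out, the lone library of a group is assumed to vary like the other group. Genes past the threshold then ranged from 0 to 3066, members from 0 to 4 and list genes from 0 to 25. The lowest counts were without Ctrl replicate 1 or 2, where edgeR gave 1842 and 1868 genes an unadjusted p under 0.05. The log2 fold change then ranged from -0.78 to 0.079 for NES, -0.38 to 1.03 for MSI1, -0.11 to 0.44 for S100B, -0.039 to 0.18 for ID1, -0.25 to 0.21 for CD44, -1.98 to 0.14 for PDGFRA, -0.45 to 0.40 for MAP1B, -0.044 to 0.050 for S100A6, -0.033 to 2.30 for CDH5 and -0.91 to 0.16 for VWF. CD44 was also at -0.021 with library totals, -0.018 with the replicate block, -0.019 with limma-voom and -0.0024 with at least 10 counts in every library, MAP1B at -0.0059, -0.022 and -0.019 with library totals, the block and limma-voom, and S100A6 at -0.024 with library totals. The cause was not tested. Depth limits MSI1 and S100B, which had under 100 counts in each library.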
